A study of Rattus norvegicus with 4 samples.

Results

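The genes described here encode the receptors for glutamate, GABA and glycine. They were chosen by symbol: a probe was included if its single annotated symbol named a subunit of an AMPA, kainate, NMDA or delta receptor, a metabotropic glutamate receptor, a GABA-A or GABA-B receptor subunit, or a glycine receptor subunit. The array held 66 such probes for 45 genes. Of these, 56 probes for 41 genes could be read, out of 11038 genes with a readable name on the array. The other 10 probes, and with them 4 genes, lay in a stretch of the array where names could not be tied to values. The 41 genes comprise 4 of AMPA, 5 of kainate, 7 of NMDA and 7 of metabotropic glutamate receptors, 13 of GABA-A, 2 of GABA-B and 3 of glycine receptors. No delta receptor gene was read.

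Glutamate opens the AMPA, kainate and NMDA receptors, which are tetrameric cation channels, and acts more slowly through the G-protein-coupled metabotropic receptors. GABA-A and glycine receptors are pentameric chloride channels, whose effect on the cell depends on the chloride gradient set by cation-chloride cotransporters, and GABA-B receptors are obligate dimers that couple to G proteins. In the vestibular organs, hair cells release glutamate onto the terminals of primary afferents, and the same ganglion neurons release glutamate in the brainstem.

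The study profiled primary afferent neurons of the rat vestibular ganglion, collected as pools by laser capture from tissue stained for calretinin. Calretinin-positive cells were taken as afferents with calyx endings, and calretinin-negative cells as afferents with dimorphic or bouton endings. Total RNA labelled with Cy5 was hybridised to 1-colour arrays, 2 titled calretinin_positive and 2 titled calretinin_negative. The labels name no strain, age or treatment, and because both groups carry the same written description, naming positive cells, the titles alone assign them. The labels do not say whether the 2 arrays of a group represent different animals or pools. The p-values therefore capture the variation between these arrays, which may be technical.

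The 4 arrays had median intensities of 0.9896 to 0.9916 and correlated at r = 0.9896 within the positive and 0.994 within the negative group, against at least 0.925 between groups (log2 intensities, 21070 probes). Calb2, which encodes calretinin and was the basis of the sort, had intensities of 291 and 328 on the positive arrays, against 138 and 129 on the negative arrays. The sort marker thus ran in the labelled direction, and it was read on the negative arrays too. Over the whole array 13530 of 21070 tested probes, 64.2%, passed an adjusted p of 0.05 in limma with Benjamini-Hochberg adjustment: 40.6% were higher and 23.6% lower on the positive arrays. At least 2-fold changes among them made up 15.3% of the tested probes, with 8.28% higher and 7.07% lower. In bulk pools such as these, fewer cells of a type and less RNA per cell cannot be told apart.

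Of the 41 receptor genes, 26 lay above the limit for dim probes (a mean log2 value above the 40th percentile, an intensity of 0.456) and were tested, and 15 lay below it. Among the 26, 8 were higher and 7 lower on the positive arrays, and 11 did not pass. The called share, 57.7%, lay near the 64.2% of all tested probes. The median log2 change was -0.08 over the 26 genes and 0.11 over all tested probes. At least 2-fold changes were called in 5 of the 26: Grik1 and Grm4 were higher, and Grin2b, Gabra6 and Gabrb1 were lower. Of these, Grin2b and Gabra6, also among the 7 lower, passed the limit on average only through the negative arrays. Their calls are thus tied to that limit and give no size of the difference. When each probe was tested on its own spread in place of the moderated one, 8 of the 15 calls were lost: Gria2, Gria4, Grin1, Grin2b, Grm5, Gabra5, Gabrb2 and Gabrq. The number of genes called lower depended on the scaling: 10 with quantile and 12 with cyclic loess normalization, against 7 on the deposited scale, while 7 were called higher under each of those normalizations. The share of higher among all called probes was 53.5% with quantile and 49.3% with loess normalization, against 63.3% on the deposited scale. Although the medians matched, the 90th percentile of intensity was 29.9 and 30.1 on the positive arrays against 25.7 and 25.6 on the negative arrays. The part of this difference in small rises of bright genes was not tested.

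**Figure D1:**
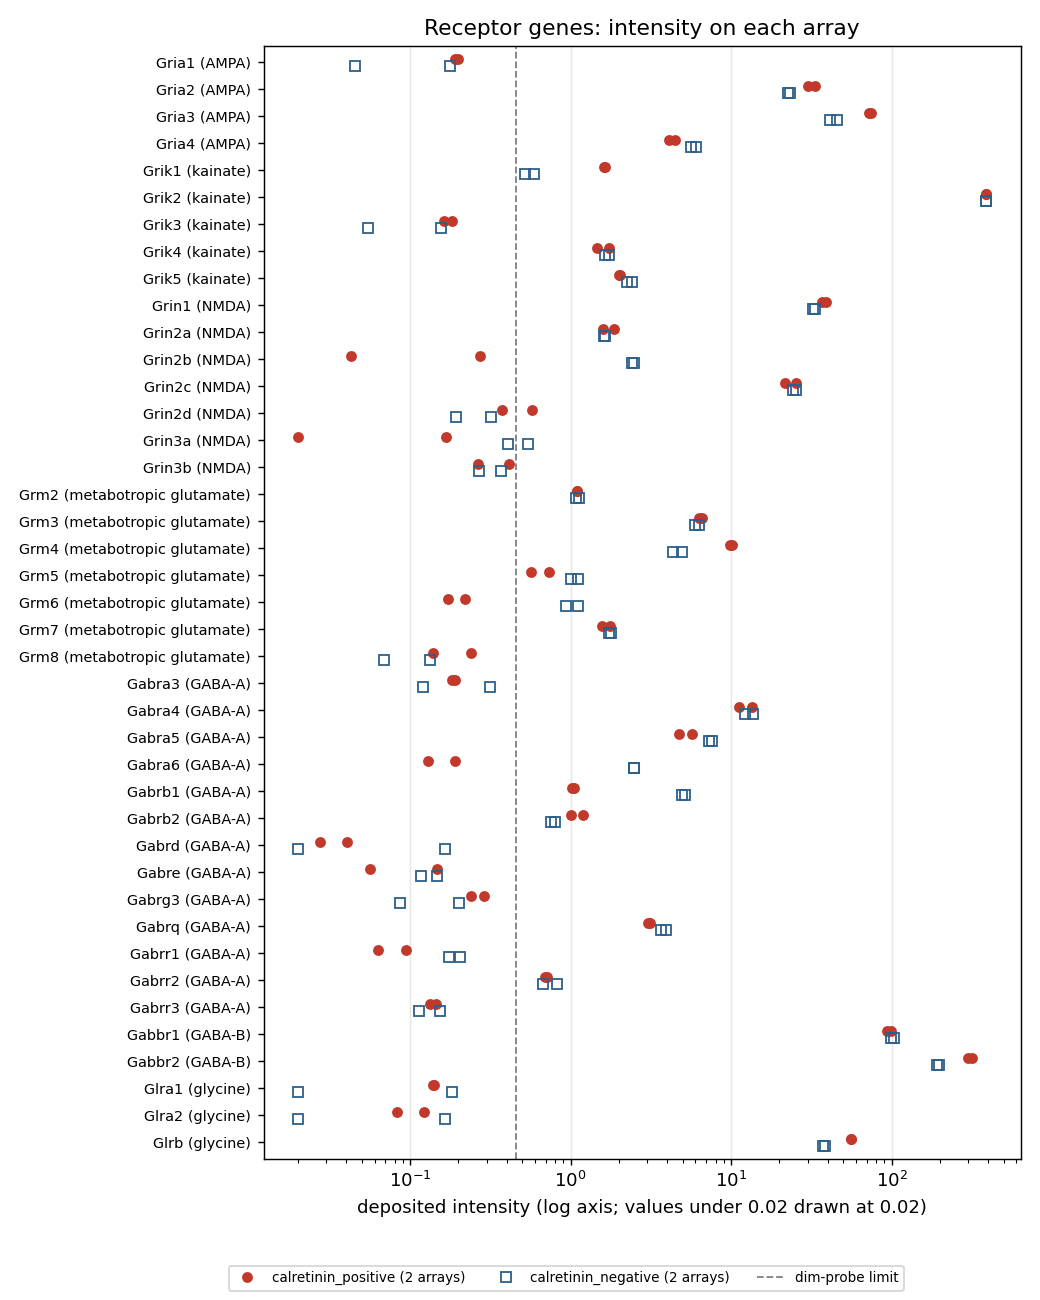
Deposited intensity (log axis) of each of the 41 receptor genes on each of the 2 calretinin-positive (filled circles) and 2 calretinin-negative (open squares) arrays, by the brightest probe of the gene. The dashed line is the limit for dim probes, an intensity of 0.456. Grin2b, Gabra6 and Grm6 lie below the line on both positive arrays and above it on both negative ones. Grik2 and Grm3 are drawn at 1 of their 2 readings.

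The promoters of Grik1, Gabra6 and Gabrb1 are shown because these genes are among those with the largest called differences and have an entry in the promoter table used. The sequences are from RefSeq (rat assembly GRCr8), in which 31 of the 41 genes had an entry, and run 5′ to 3′ from 250 bases before to 50 bases after the annotated start. Capitals mark CG dinucleotides. All of them lie on the minus strand: Grik1 at chr11:41056454-41056753, Gabra6 at chr10:27327185-27327484 and Gabrb1 at chr14:36902844-36903143.
Grik1: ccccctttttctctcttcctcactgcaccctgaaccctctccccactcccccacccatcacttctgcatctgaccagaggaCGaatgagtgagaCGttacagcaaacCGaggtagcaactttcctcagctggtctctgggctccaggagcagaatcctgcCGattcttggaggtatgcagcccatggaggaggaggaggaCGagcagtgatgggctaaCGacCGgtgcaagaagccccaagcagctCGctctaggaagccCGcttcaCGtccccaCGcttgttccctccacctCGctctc
Gabra6: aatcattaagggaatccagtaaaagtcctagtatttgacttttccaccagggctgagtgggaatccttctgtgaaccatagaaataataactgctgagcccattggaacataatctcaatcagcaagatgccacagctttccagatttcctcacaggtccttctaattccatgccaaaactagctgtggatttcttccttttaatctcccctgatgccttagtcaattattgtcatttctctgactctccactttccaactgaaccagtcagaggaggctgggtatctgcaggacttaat
Gabrb1: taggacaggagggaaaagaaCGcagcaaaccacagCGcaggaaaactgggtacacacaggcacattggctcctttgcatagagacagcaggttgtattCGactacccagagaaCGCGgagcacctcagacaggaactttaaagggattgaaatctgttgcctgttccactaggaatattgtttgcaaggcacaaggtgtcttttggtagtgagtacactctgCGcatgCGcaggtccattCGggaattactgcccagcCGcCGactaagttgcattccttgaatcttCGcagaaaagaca
The Gabra6 window holds 0 CG dinucleotides at 42.3% G and C, a count of CG shared by 5.47% of the 33469 promoters in the table. The Grik1 window holds 12 CG at 58.7% G and C, and the Gabrb1 window 11 CG at 49.3%, while 39.0% of all promoters hold 11 or more and the median promoter holds 7. Neither TATAAA nor GGGCGG was found on either strand of these windows; they occur in 14.2% and 33.1% of all promoters. The gene that was higher and one of the genes that were lower on the positive arrays therefore have similar CG counts.

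AMPA receptors carry most fast transmission at glutamatergic synapses. Of the 4 genes read, 3 were tested: Gria2 and Gria3 rose and Gria4 fell. Gria3, the brightest of the class, had intensities of 72.3 and 74.6 on the positive arrays, against 45.9 and 41.3 on the negative arrays. The groups did not overlap, and the difference was 0.75 ± 0.07 on the log2 scale (SE, 1.69-fold, limma adjusted p = 1.77e-05). Gria2 encodes the subunit that, after editing of its transcript, makes the channel nearly impermeable to calcium. It averaged 31.9 ± 2.25 on the positive and 22.9 ± 0.481 on the negative arrays (SD, n = 2 each), a log2 change of 0.47 ± 0.07 (SE, limma adjusted p = 0.000308). Gria4 went the other way, at 4.27 ± 0.256 on the positive and 5.86 ± 0.282 on the negative arrays, a log2 change of -0.46 ± 0.08 (SE, limma adjusted p = 0.000545). With quantile or loess normalization the log2 changes of Gria2 and Gria3 were 0.26 to 0.51, and the calls on all 3 genes held, whereas with each probe on its own spread Gria2 and Gria4 did not pass (adjusted p = 0.0611 and 0.0667). The fall of Gria4 rests on 1 probe: 2 others were below the limit on all 4 arrays, at 0.343 and 0.277 on the positive against 0.112 and 0.170 on the negative arrays, and at 0.118 and 0.126 on the positive against 0.0996 and -0.0045 on the negative arrays. Gria1 lay below the limit on all 4 arrays.

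Kainate receptors are built from low-affinity subunits (Grik1, Grik2 and Grik3), which form channels alone, and the high-affinity subunits Grik4 and Grik5, which join them. Of the 4 genes tested by table rows only Grik1 passed, and it rose. By grid position 3 were tested, without Grik2, and 1 was called higher. Its intensities were 1.64 and 1.62 on the positive arrays, against 0.595 and 0.521 on the negative arrays, close to the limit. The log2 change was 1.55 ± 0.15 (SE, 2.92-fold, limma adjusted p = 1.27e-05). The second Grik1 probe was below the limit on all 4 arrays at either reading of its name, so the difference rests on 1 probe. Grik4 and Grik5 did not pass, with log2 changes of -0.08 ± 0.11 and -0.21 ± 0.09 (SE, limma adjusted p = 0.552 and 0.0633). With loess normalization, however, Grik5 was called lower at -0.26. Grik3 lay below the limit.

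The value of Grik2 depends on how its name is read, and the controls favoured the reading at which Grik2 lay below the limit. Read 5 table rows after its ID, it had 385 and 388 on the positive arrays against 387 and 386 on the negative arrays, the brightest of the class and with a log2 change of 0.00 ± 0.07 (SE, limma adjusted p = 0.998). Read 5 positions later on the array's grid, a reading tried after the data were seen, it had 0.133 and 0.0189 on the positive arrays against 0.007 and 0.114 on the negative arrays, all below the limit. Among control probes repeated on the array, values in the early and late parts correlated at r = 0.936 by table rows and 0.998 by grid positions (54 pairs). In the 6 pairs where the readings differ, r was 0.0373 by rows and 0.999 by grid. In 33 further pairs of probes annotated to the same transcript, where the readings differ, r was -0.0152 by rows and 0.548 by grid. Grm3 and the second probes of Grin1 and Grik1 were the other receptor probes where the readings differ.

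NMDA receptors pair the obligatory Grin1 subunit with Grin2 subunits, which set their kinetics, or with Grin3 subunits. Of the 7 genes read, 4 were tested: Grin1 was called higher, Grin2b lower, and Grin2a and Grin2c did not pass. Grin1 had intensities of 36.6 and 39.3 on the positive arrays, against 32.2 and 33.6 on the negative arrays. The log2 change was 0.21 ± 0.07 (SE, 1.15-fold, limma adjusted p = 0.0259), small enough to be lost without positive replicate 2 (0.16, adjusted p = 0.149) or negative replicate 1 (0.18, adjusted p = 0.118). It turned to -0.03 with quantile and -0.02 with loess normalization, neither of which passed (adjusted p = 0.696 and 0.835). The second Grin1 probe, read by grid position, had 27.2 and 28.6 on the positive arrays against 27.5 and 28.8 on the negative arrays, with no called change.

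Grin2b was the NMDA gene called lower. It had intensities of 0.043 and 0.275 on the positive arrays, both below the limit, against 2.48 and 2.42 on the negative arrays. The arrays did not overlap, and the negative arrays stood 5.37-fold over the limit itself. Grin2b passed the limit for dim probes only through those arrays, so its limma adjusted p of 0.000245 adds no support. No size of the difference is given, because the positive arrays lay below the limit: the fitted log2 change was -3.16 without positive replicate 1 and -5.83 without positive replicate 2. The call was lost when the variance prior was made robust (adjusted p = 0.0795) or each probe was tested on its own spread (0.131). A second Grin2b probe, too dim on average to be tested, had 0.161 and 0.158 on the positive arrays against 1.02 and 1.16 on the negative arrays, the same order as the first. Grin2c averaged 23.6 ± 2.50 on the positive and 24.8 ± 0.894 on the negative arrays (SD, n = 2 each) at its brighter probe, which did not pass. Its second probe had 2.81 and 2.86 on the positive arrays against 3.95 and 4.09 on the negative arrays and was called lower (log2 change -0.50 ± 0.07, SE, limma adjusted p = 0.000233). The brighter probe was also called lower, at -0.29, with either normalization. Grin2a had a log2 change of 0.08 and did not pass.

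In 2 untested NMDA genes, 1 group lay above the limit and the other below. Grin2d had 0.374 and 0.571 on the positive arrays, which straddled the limit, against 0.194 and 0.318 on the negative arrays. Grin3a, whose product lowers the calcium permeability of the channel, had 0.0056 and 0.168 on the positive arrays against 0.407 and 0.540 on the negative arrays, which also straddled the limit. Tested without the limit for dim probes, neither passed (limma adjusted p = 0.120 for Grin2d and 0.0508 for Grin3a). Grin3b lay below the limit in both groups.

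**Figure D2:**
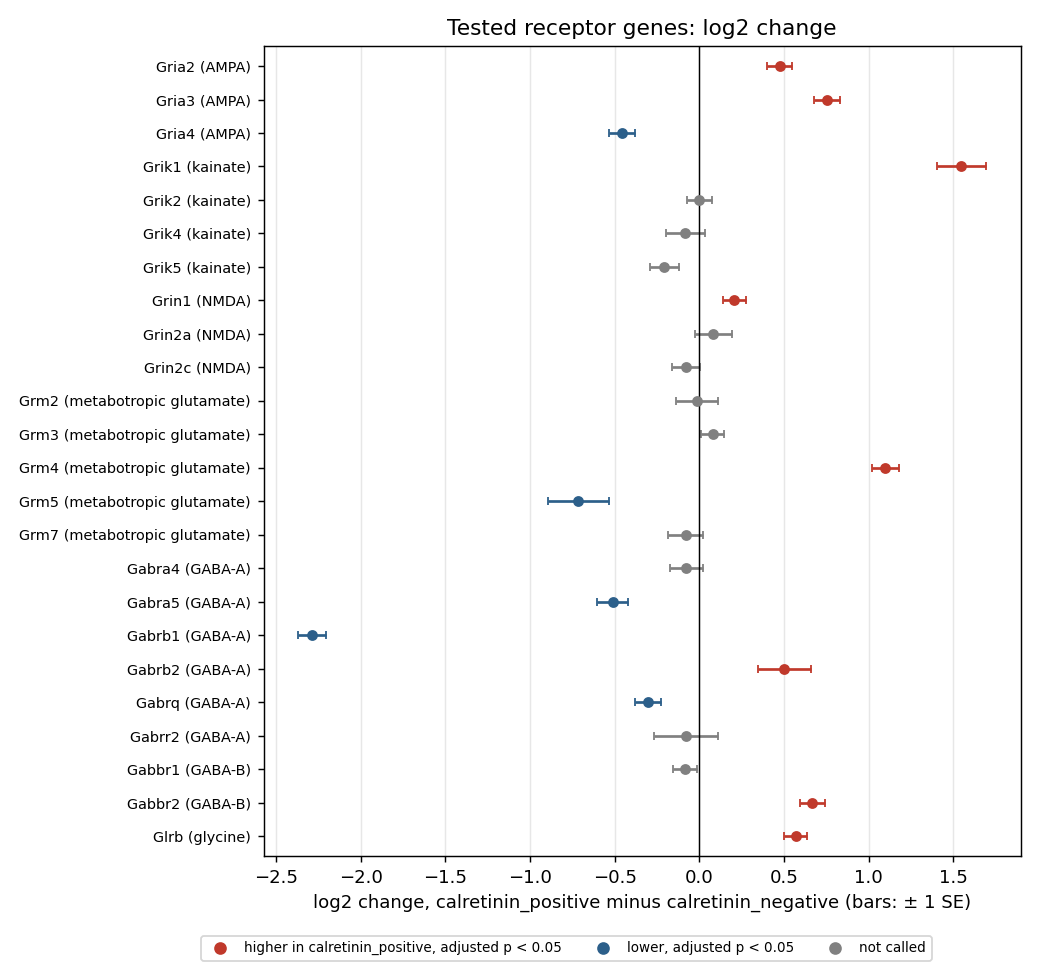
Log2 change (calretinin-positive minus calretinin-negative, x axis) with 1 SE for the tested receptor genes whose groups both lay above the limit, so that Grin2b and Gabra6 are not drawn. Grik1 and Grm4 stand at 1.55 and 1.10 and Gabrb1 at -2.29, and the other genes lie between -0.72 and 0.75. Grik2 and Grm3 are drawn at their table-row reading, which the repeated controls did not favour.

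Metabotropic glutamate receptors fall into the postsynaptic group I, which couples to phospholipase C, and groups II and III, which lower cyclic AMP and often sit on terminals. Of the 7 genes read, 5 were tested, with 1 higher, 1 lower and 3 not called. Grm4, of group III, was the brightest gene of the class and had intensities of 9.87 and 10.1 on the positive arrays, against 4.97 and 4.37 on the negative arrays. It rose by 1.10 ± 0.08 on the log2 scale (SE, 2.14-fold, limma adjusted p = 2.13e-06), and by 1.01 and 0.93 with quantile and loess normalization. Grm5, of group I, averaged 0.649 ± 0.117 on the positive and 1.06 ± 0.0685 on the negative arrays (SD, n = 2 each) and fell by 0.72 ± 0.18 on the log2 scale (SE, limma adjusted p = 0.00632). A second Grm5 probe was below the limit on all 4 arrays.

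The remaining metabotropic genes gave no called change or no settled one. Grm2 and Grm7 had log2 changes of -0.02 and -0.08 and did not pass (limma adjusted p = 0.925 and 0.509). Grm6, known chiefly from the ON bipolar cells of the retina, had 0.221 and 0.171 on the positive arrays, below the limit, against 0.940 and 1.10 on the negative arrays. It was too dim on average to be tested, and without the limit it was called lower (limma adjusted p = 0.000164). Grm3, of group II, had 6.62 and 6.32 on the positive arrays against 5.97 and 6.30 on the negative arrays by table rows, with no called change. By grid position, the reading the repeated controls favoured, it had 0.313 and 0.334 on the positive arrays, below the limit. Against these stood 1.29 and 1.38 on the negative arrays, and Grm3 was called lower. At this reading it passed the limit on average only through those arrays, so its limma adjusted p of 1.18e-05 adds no support. Grm8 lay below the limit.

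GABA-A receptors usually combine alpha, beta and a further subunit. Of the 13 genes read, 7 were tested: Gabrb2 rose, Gabra5, Gabra6, Gabrb1 and Gabrq fell, and Gabra4 and Gabrr2 did not pass. The median log2 change of the 7 was -0.30, against 0.11 over all tested probes, and it was -0.34 with quantile and -0.40 with loess normalization. These medians include Gabra6, which passed the limit on average only through the negative arrays, so they are partly tied to that limit. Among the alpha subunits, Gabra4 was the brightest, at 13.5 and 11.1 on the positive arrays against 12.2 and 13.7 on the negative arrays. These arrays overlapped and the change of -0.08 ± 0.10 (log2, SE) did not pass (limma adjusted p = 0.511), though with loess normalization it was called lower at -0.27 (adjusted p = 0.0359). Gabra5, whose receptors are mostly extrasynaptic in the hippocampus, averaged 5.23 ± 0.672 on the positive and 7.43 ± 0.207 on the negative arrays (SD, n = 2 each), a fall of 0.51 ± 0.09 on the log2 scale (SE, limma adjusted p = 0.0008).

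Gabra6 encodes the alpha subunit that in the adult brain is found mainly in cerebellar granule cells. It had 0.129 and 0.189 on the positive arrays, both below the limit, against 2.50 and 2.48 on the negative arrays. The arrays did not overlap, and the negative arrays stood 5.46-fold over the limit. Gabra6 passed the limit for dim probes only through those arrays, so its limma adjusted p of 6.31e-07 adds no support. Again no size of the difference is given. The second Gabra6 probe was below the limit on all 4 arrays, at 0.0795 and 0.0652 on the positive arrays and 0.0135 and 0.215 on the negative arrays, so the difference rests on 1 probe.

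Gabrb1, a beta subunit, had the smallest adjusted p of the 26 genes. Its intensities were 1.05 and 1.02 on the positive arrays, against 4.95 and 5.17 on the negative arrays. It fell by 2.29 ± 0.08 on the log2 scale (SE, 4.88-fold, limma adjusted p = 4.06e-08). A second probe annotated to the same Gabrb1 transcript, read from the late part of the array, had 0.466 and 0.235 on the positive arrays against 0.339 and 0.167 on the negative arrays. That probe was too dim to be tested and its groups overlapped, so this difference also rests on 1 probe. Gabrb2 ran opposite to Gabrb1, at 1.20 and 1.01 on the positive arrays against 0.805 and 0.752 on the negative arrays (log2 change 0.50 ± 0.16, SE, limma adjusted p = 0.0178). This call was lost without positive replicate 1 or negative replicate 2, and a second Gabrb2 probe was below the limit on all 4 arrays. Gabrq, which encodes the theta subunit, averaged 3.08 ± 0.0669 on the positive and 3.80 ± 0.207 on the negative arrays (SD, n = 2 each), a fall of 0.30 ± 0.08 on the log2 scale (SE, limma adjusted p = 0.0066). Gabrr2, one of the rho subunits known from retina, did not pass. Gabra3, Gabrd, Gabre, Gabrg3, Gabrr1 and Gabrr3 lay below the limit in both groups.

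The GABA-B receptor needs Gabbr1, which binds GABA, and Gabbr2, which couples to the G protein. Gabbr2, the brighter probe, had 299 and 318 on the positive arrays, against 196 and 193 on the negative arrays, and rose by 0.67 ± 0.07 on the log2 scale (SE, 1.59-fold, limma adjusted p = 3.77e-05). With quantile and loess normalization the rise was 0.42 and 0.38. The 3 Gabbr1 probes disagreed. The brightest averaged 96.1 ± 4.32 on the positive and 102 ± 3.20 on the negative arrays (SD, n = 2 each) and did not pass, but was called lower with either normalization, at -0.23 and -0.35. The second, annotated to the same transcript, had 36.3 and 37.2 on the positive arrays against 29.8 and 30.0 on the negative arrays and was called higher (log2 change 0.30 ± 0.06, SE, limma adjusted p = 0.00267). The third, with a log2 change of -0.24, did not pass.

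**Figure D3:**
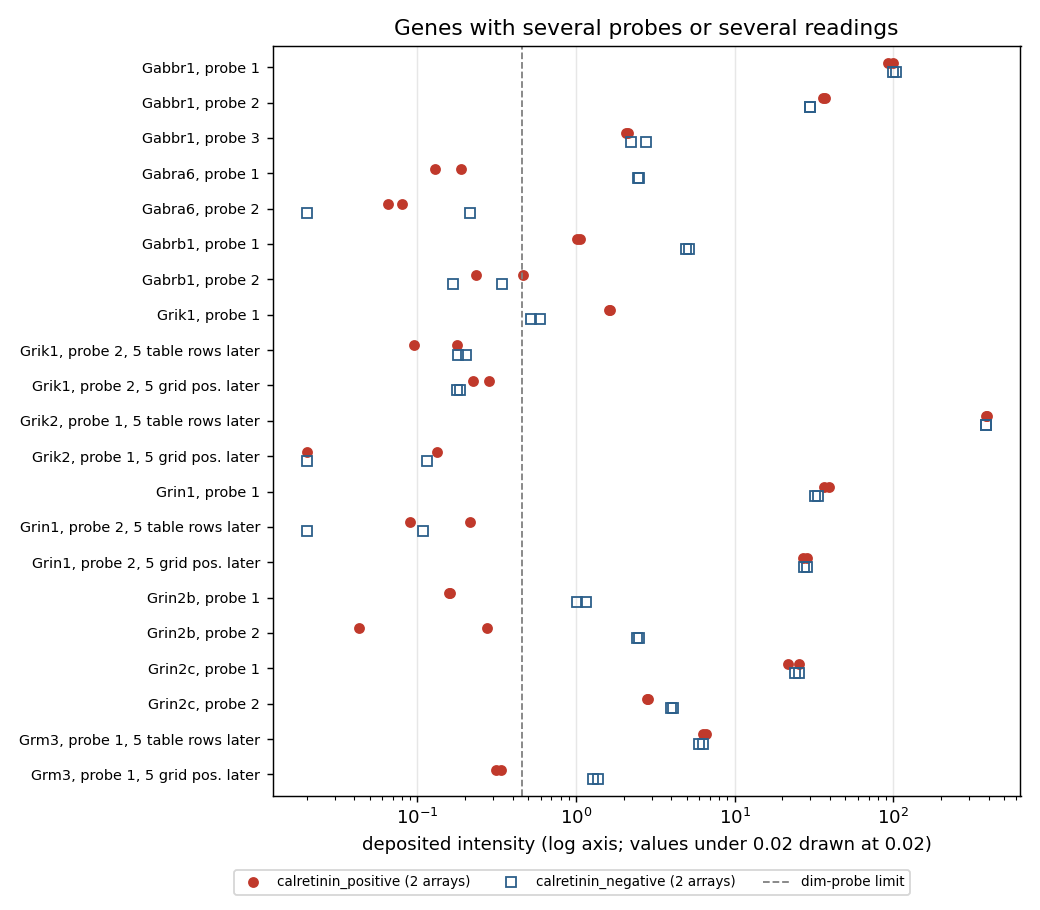
Deposited intensity (log axis) on each calretinin-positive (filled circles) and calretinin-negative (open squares) array for receptor genes with several probes, or with readings by table row and by grid position that differ. Both Grin2b probes are lower on the positive arrays; of the Gabra6 and Gabrb1 probes, 1 each shows the difference and the other lies near or below the dashed limit of 0.456.

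Glycine receptors combine alpha subunits, which bind glycine, with the beta subunit encoded by Glrb, which anchors the receptor to gephyrin. Of the 3 genes read, only Glrb was above the limit. It had 56.2 and 55.7 on the positive arrays, against 37.2 and 38.3 on the negative arrays, and rose by 0.57 ± 0.07 on the log2 scale (SE, 1.48-fold, limma adjusted p = 4.68e-05). The rise was 0.30 and 0.33 with quantile and loess normalization. Glra1 and Glra2 lay below the limit on all 4 arrays, between 0.0824 and 0.140 on the positive arrays and between -0.0163 and 0.182 on the negative arrays. The beta subunit was thus read with neither of the alpha subunits measured here above the limit.

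Set side by side, 5 of 16 tested glutamate receptor genes were higher and 3 lower, and 3 of 10 GABA and glycine receptor genes were higher and 4 lower, against 40.6% higher and 23.6% lower over all tested probes. Their median log2 changes were -0.01 and -0.08. These counts and medians include Grin2b and Gabra6, called lower, which passed the limit on average only through the negative arrays. On the deposited scale and with either normalization, the AMPA, metabotropic and GABA-A classes each held genes called in both directions. The NMDA class did so on the deposited scale only, where Grin1 was higher and Grin2b was the only gene called lower. The kainate and GABA-B classes did so with either normalization but not on the deposited scale. With quantile normalization the only kainate gene called lower was Grik2, at the table-row reading that the repeated controls did not favour. With loess normalization Grik5 was called lower as well. Read by grid position, which left 25 genes tested, 8 were higher and 8 lower. Those 8 lower include Grm3, which at that reading also passed the limit on average only through the negative arrays.

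The proteins that traffic and anchor these receptors were followed as lists, whose counts stand against 40.6% called higher and 23.6% called lower over all tested probes. Of 16 listed auxiliary subunits and partners of AMPA and kainate receptors, 10 were read and 6 tested, with 1 higher and 1 lower (2 lower with loess normalization). Olfm1, an olfactomedin that associates with AMPA receptors, averaged 108 ± 6.96 on the positive and 69.7 ± 2.07 on the negative arrays (SD, n = 2 each), a rise of 0.63 on the log2 scale (limma adjusted p = 5.7e-05). Nptxr, the neuronal pentraxin receptor, averaged 11.6 on the positive and 13.6 on the negative arrays, a log2 change of -0.23 (limma adjusted p = 0.0251).

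Of 26 listed scaffold proteins of excitatory synapses, 20 were tested, and 7 were higher and none lower, a share of 35% against 40.6% higher in all tested probes. Shank2, a scaffold linking NMDA receptor and Homer complexes, had 10.1 and 9.44 on the positive arrays against 4.57 and 4.27 on the negative arrays (log2 change 1.14, 2.21-fold, limma adjusted p = 1.01e-06). Camk2d, a calcium-dependent kinase subunit, averaged 2.76 on the positive and 1.03 on the negative arrays by table rows (log2 change 1.42, limma adjusted p = 1.63e-06), but by grid position it was not above the limit. By grid position 5 of 19 were higher and 1 lower. With quantile normalization 5 of the 20 were higher and 1 lower, and with loess 5 higher and 2 lower.

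Of 14 listed proteins of inhibitory synapses, 8 were tested, with 2 higher and 2 lower (3 lower with quantile normalization). Gphn encodes gephyrin, which anchors glycine and many GABA-A receptors. It had 26.0 and 24.7 on the positive arrays, against 13.1 and 12.9 on the negative arrays, a rise of 0.96 on the log2 scale (1.94-fold, limma adjusted p = 1.63e-06) in the same samples in which Glrb was higher. Gabarap, a GABA-A receptor trafficking protein, averaged 12.5 on the positive and 9.46 on the negative arrays (limma adjusted p = 0.00062). Trak2 and Hap1, which link cargo to motor proteins, fell by 0.69 and 0.70 on the log2 scale (limma adjusted p = 4.33e-05 and 6.17e-05).

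**Figure D4:**
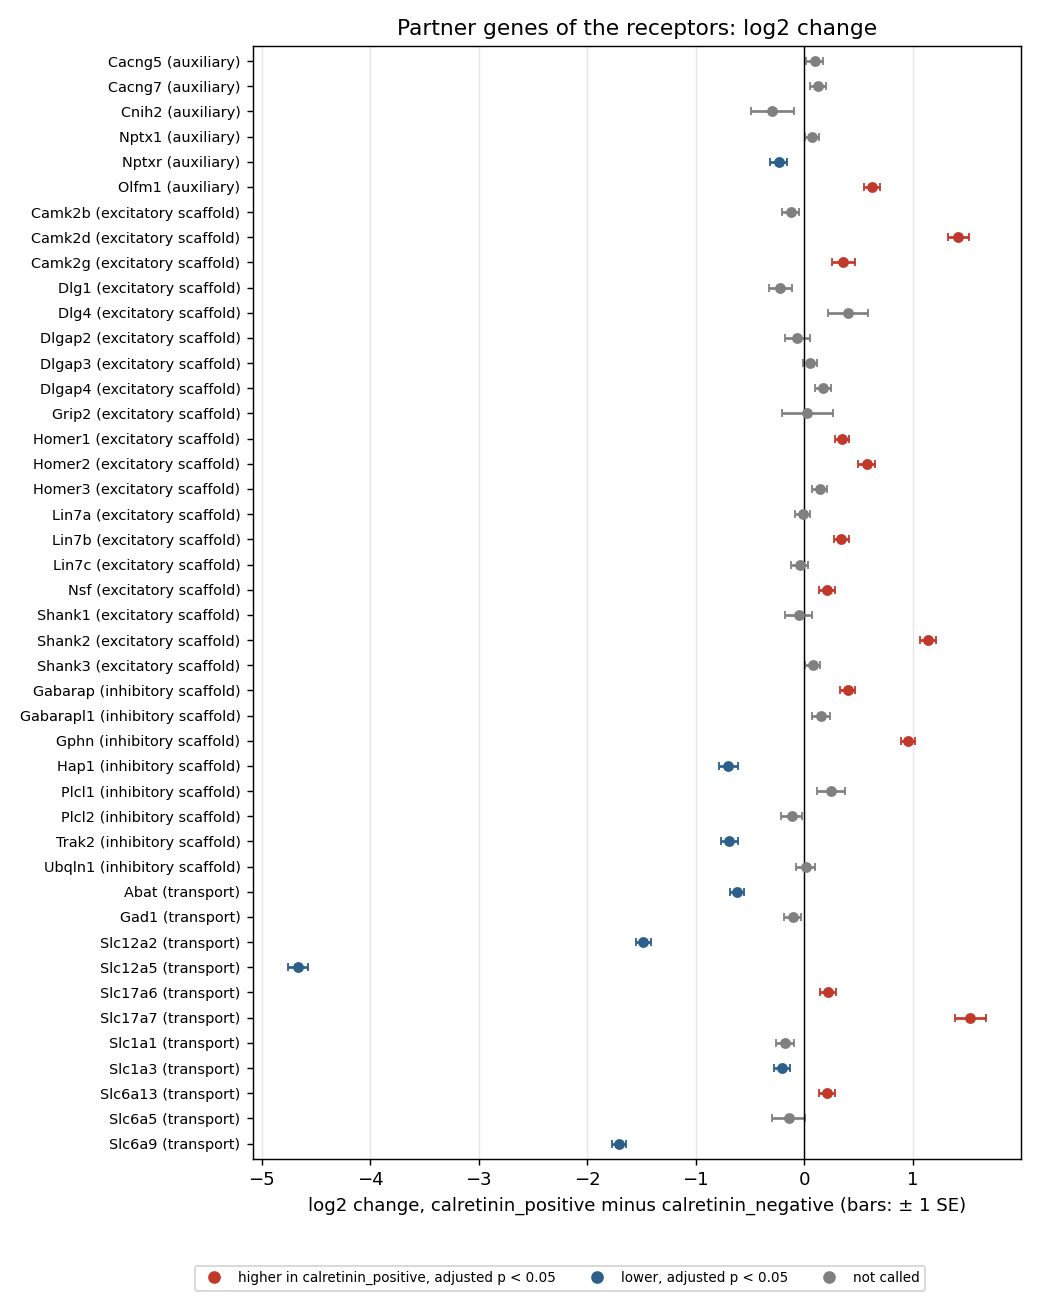
Log2 change (calretinin-positive minus calretinin-negative, x axis) with 1 SE for the tested auxiliary, scaffold and transport genes whose groups both lay above the limit. Slc12a5 lies farthest from 0, at -4.67, with its positive arrays just above the limit. Slc17a7 and Camk2d lie highest, at 1.53 and 1.42. Camk2d is drawn by table rows, and by grid position it was not above the limit.

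Of 21 listed genes for transmitter synthesis, transport and the chloride gradient, 11 were tested, with 3 higher and 5 lower, a called share of 72.7% against 64.2% over all tested probes. The cotransporters that set the direction of chloride flow through GABA-A and glycine receptors were both lower. Slc12a5, the potassium-chloride cotransporter that extrudes chloride from mature neurons, had 0.493 and 0.536 on the positive arrays, just above the limit, against 13.7 and 12.4 on the negative arrays. It fell by 4.67 on the log2 scale (25.4-fold, limma adjusted p = 1.19e-09). Slc12a2, which loads cells with chloride and was picked after its values were seen, averaged 20.5 ± 0.904 on the positive and 57.1 ± 1.75 on the negative arrays (SD, n = 2 each, limma adjusted p = 1.54e-07). Slc6a9, a glycine transporter found largely on glia, had 15.5 and 16.3 on the positive arrays against 52.5 and 51.2 on the negative arrays (3.26-fold lower, limma adjusted p = 5.49e-08).

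Of the vesicular glutamate transporters, Slc17a7 rose on the deposited scale and with either normalization, and Slc17a6 on the deposited scale only. Slc17a7 had 2.17 and 1.96 on the positive arrays against 0.640 and 0.793 on the negative arrays, a rise of 1.53 on the log2 scale (limma adjusted p = 1.09e-05). Slc17a6 averaged 290 on the positive and 249 on the negative arrays, a log2 change of 0.22 (limma adjusted p = 0.0254) that turned to -0.02 with quantile and -0.07 with loess normalization and did not pass there. With either normalization 1 of the 11 genes was higher and 7 were lower.

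Markers of other cell types were read on the same arrays. Between 66.7% and 80% of the tested genes of each list were called, against 64.2% of all tested probes, so the counts of calls alone do not set these lists apart. Of 7 oligodendrocyte markers read, 3 were tested and 2 were lower, and the summed intensity of the list was 13.8 and 15.4 on the positive arrays against 129 and 132 on the negative arrays. Mog had 0.985 and 1.01 on the positive arrays against 42.0 and 43.8 on the negative arrays, and Mobp averaged 1.90 on the positive and 76.6 on the negative arrays, while Mag, Olig2 and Ermn were below the limit in both groups. Opalin, the other tested marker, did not pass, averaging 11.2 on the positive and 10.2 on the negative arrays by table rows, and by grid position it was not above the limit. Without Opalin the list summed to 3.02 and 3.76 on the positive arrays against 119 and 122 on the negative arrays. Those sums on the negative arrays thus came nearly all from Mog and Mobp.

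Of 6 astrocyte markers read, 5 were tested, with 1 higher and 3 lower, and the list summed to 303 and 327 on the positive arrays against 368 on each negative array. Gfap averaged 1.04 on the positive and 44.5 on the negative arrays. Of 6 Schwann cell and satellite glia markers read, 5 were tested, with 4 lower and none higher, and they summed to 123 and 112.4 on the positive arrays against 225 and 240 on the negative arrays. Most of that sum was Prx, at 113 and 101 on the positive arrays against 191 and 207 on the negative arrays. Glial lists were therefore brighter on the arrays titled negative in each of these sums, though the tested astrocyte genes moved in both directions.

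The list for cerebellar granule and other central neurons had 11 genes read and 6 tested, with 1 higher and 3 lower, and summed to 53.4 and 51.8 on the positive arrays against 103.5 and 97.5 on the negative arrays. Reln averaged 5.97 on the positive and 40.8 on the negative arrays, and Cbln1 2.88 on the positive and 11.9 on the negative arrays. Fat2 was higher on the positive arrays, and Zic1, Neurod1, Car8, Gad2 and Barhl1 were below the limit in both groups. These lists moved in the same samples as Gabra6, Grin2b, Gabrb1, Slc12a5 and Slc6a9, and their part in those differences was not tested.

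Of 10 vestibular ganglion neuron markers read, 9 were tested, with 5 higher and 2 lower, and the list summed to 1076 and 1132 on the positive arrays against 885 and 887 on the negative arrays; with loess normalization 3 were higher and 4 lower. Calb2, on which the cells were sorted, is in that list, and without it 4 were higher and 2 lower and the sums were 785 and 805 on the positive against 746 and 758 on the negative arrays. Most of the difference in the neuronal sum was thus that of Calb2. Hair cell markers had 4 genes read and 3 tested, with 2 lower, summing to 8.55 and 8.89 on the positive and 14.5 and 14.2 on the negative arrays. Of the 2 lower, Cdh23 had 0.148 and 0.1385 on the positive arrays against 4.09 and 3.95 on the negative arrays. It passed the limit on average only through the negative arrays, and it made up much of the difference in the sum. Fibroblast markers, with 4 tested, had 1 higher (Ogn) and 2 lower (Dcn and Col1a1) and summed to 182 and 177 on the positive against 124 and 133 on the negative arrays. Without Ogn the sum turned, to 58.7 and 66.4 on the positive against 70.8 and 75.7 on the negative arrays. Endothelial and mural markers, with 4 tested, had 3 lower and summed to 8.82 and 8.02 on the positive against 21.8 and 21.9 on the negative arrays. Hair cell and endothelial sums were thus lower on the positive arrays, and the direction of the fibroblast sum depended on Ogn.

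**Figure D5:**
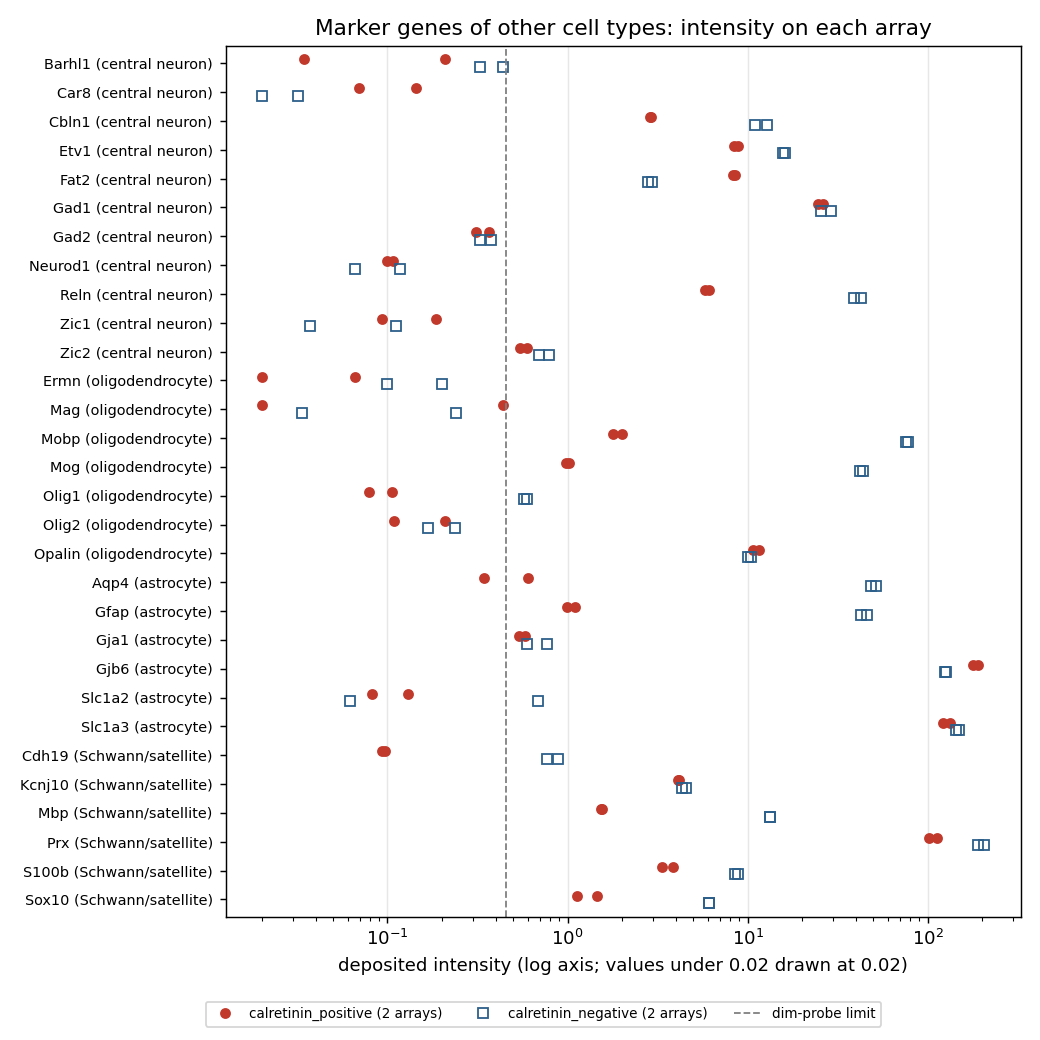
Deposited intensity (log axis) of markers of central neurons, oligodendrocytes, astrocytes, and Schwann cells and satellite glia on each calretinin-positive (filled circles) and calretinin-negative (open squares) array. Mog, Mobp, Gfap and Reln are higher on both negative arrays, and Gjb6 and Fat2 are higher on both positive arrays. Mag, Olig2, Ermn, Zic1 and Neurod1 lie below the dashed limit of 0.456 on all 4 arrays.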

How the data were processed

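The deposited values are the authors' probe intensities on a linear scale, from 1-colour Cy5 arrays of 4 samples per the labels; the sources used here do not give the scanner, background correction or normalization. The medians of the arrays differed by under 5%, and the deposited intensities were not normalized further. The upper end of the intensities was higher on the positive arrays, as given above. Values that were missing, zero or negative (532 to 776 zero or negative per array) took the 1st percentile of the positive values on that array, and log2 was taken of the deposited intensities. Probes with a mean log2 below the 40th percentile were left out, which left 21070 of 35126.

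Names came from the platform annotation, in which 16677 probes had 1 symbol, 163 several and 18286 none. Names in the early part of the array were read at their own row and those in the late part 5 table rows later; 2010 single-symbol probes between were not read. Repeated controls later showed that the offset is nearer to 5 grid positions, which differs for 574 late probes. The table-row reading was kept because the design used it, and receptors it affects are given at both readings. A gene was represented by its brightest probe.

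The test was limma 3.58.1 (R 4.3.3), two-sided for positive minus negative, by lmFit and then eBayes with an intensity trend, and with Benjamini-Hochberg adjustment over all tested probes at 0.05; the scripts were tested on simulated data. Where a group lay below the limit its level is given and no size of the difference. Figures used matplotlib 3.10.9. Values on every array are given for genes called at least 2-fold, the brightest gene of each class and genes with 1 group above the limit, 14 in all; from each partner list, the genes named are the 2 called higher and the 2 called lower at the smallest p. Probes that disagree, and the other receptor genes and marker genes given with values, were added to these. The members and lists were chosen with earlier results of these data known. The number of arrays limits the precision. Alternatives were quantile and cyclic loess normalization, other limits and floors, variance settings, a replicate block, other readings of names, the mean over probes and leaving out each array.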

Additional observations from a re-analysis of the deposited data

How the results depend on the processing

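Across 17 other settings, 161 of 176 values of 11 receptor genes kept their side of the threshold, with no change of sign where either value passed. Values that passed in neither setting could change sign, as Gabra4 did from -0.078 to 0.058 without positive replicate 2. Settings that changed only the variance or the limit could not move the log2 change, so part of this count was fixed in advance. The number of receptor genes called lower was 12 with loess normalization, against 7. With a limit at the 60th percentile, under which 16 receptor genes were tested, 4 were lower and 2 at least 2-fold. With each probe on its own spread, 7082 probes were called, with 5 receptor genes higher and 2 lower. In the early part alone, which tests 10, 3 were higher, 4 lower and 3 at least 2-fold. With the mean over the probes of a gene, 2 of 20 were at least 2-fold. Grin1 turned to -0.032 and -0.017 with quantile and loess normalization, and Grik2 to -0.23 and -0.30; the cause was not tested. Read at their own row, the late names gave Gabbr2 -0.013, Gabrb1 0.41, Glrb -0.39 and Grik1 -0.24, each reversed, which follows from reading other probes.

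Without each array in turn, 12262 to 12764 probes were called, with 7 receptor genes higher, 7 lower and 5 at least 2-fold each time. Deviations from the group means did not correlate between arrays of the same number (r = 0.000316 over 21070 probes), so the numbers were not taken to pair them. With the replicate number as a block, 13711 probes were called, and 8 receptor genes were higher, 7 lower and 5 at least 2-fold. With 2 arrays a group, the spread of a dim gene such as Grin2b is poorly known. The sums of marker lists without Opalin, Ogn or Calb2 were added after the data were seen.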
